A study of Bos taurus with 16 samples.

Results

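The 6 genes examined in bovine endometrium after parturition belong to the ADAMTS and ADAM families: ADAMTS1, ADAMTS2, ADAMTS4, ADAMTS5, ADAMTS9 and ADAM12. Every probe that the array design names for 1 of these 6 genes was taken, whatever its values, which gave 16 probes of 43653 on the array (3 for ADAMTS1, 2 for ADAMTS2, 4 for ADAMTS4, 2 for ADAMTS5, 4 for ADAMTS9 and 1 for ADAM12). The array names 15015 genes by a current symbol. Of the 16 probes, 15 were well above background on at least 4 arrays and were tested, and the remaining one, probe 4 of ADAMTS4, was not well above background on any of the 16 arrays. Probes of a gene are numbered by their mean level, the brightest being probe 1.

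Endometrium was taken with biopsy forceps from the uterine horns of 4 fertile cows (Bos taurus), each sampled at nominal days 10, 30, 50 and 100 after parturition, and total RNA of each biopsy was hybridised to 1 one-colour Agilent array. Sampling fell on days 9 to 10, 29 to 30, 49 to 51 and 99 to 100 in these 16 samples. The cows received no treatment that the labels give, and no animals before parturition are among the groups, so day 10 serves as the baseline of each comparison. The cows are separate animals, and every cow contributes 1 array to each of the 4 times. The question the series poses is how endometrial gene expression changes with time after parturition.

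ADAMTS enzymes are secreted zinc metalloproteinases with thrombospondin repeats that act in the extracellular matrix. ADAMTS1, ADAMTS4, ADAMTS5 and ADAMTS9 cleave large aggregating proteoglycans such as versican and aggrecan, whereas ADAMTS2 removes the amino-terminal propeptide of fibrillar procollagens, and its loss in cattle causes the fragile skin of dermatosparaxis. ADAM12 is a membrane-anchored or secreted relative that sheds HB-EGF and cleaves insulin-like growth factor binding proteins. After parturition the uterus involutes, a process in which endometrial matrix is broken down and rebuilt.

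The probes that carry the comparisons below are 60 bases long, and 3 are shown because the results for ADAMTS5 and the missing signal of ADAMTS4 probe 4 rest on them. They are written 5′ to 3′ as designed. Positions are those of the array design on the HGSC Btau_3.1 build, the strand is given as the design's coordinates run, and no annotation of that build was used here. In ADAMTS5 probe 2 and ADAMTS4 probe 4, capitals mark the 29 bases that are identical where the probes of the 2 genes are laid side by side over 55 bases without gaps.
ADAMTS5 probe 1: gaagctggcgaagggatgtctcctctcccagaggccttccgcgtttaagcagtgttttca
ADAMTS5 probe 2: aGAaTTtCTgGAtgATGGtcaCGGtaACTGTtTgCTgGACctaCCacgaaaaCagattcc
ADAMTS4 probe 4: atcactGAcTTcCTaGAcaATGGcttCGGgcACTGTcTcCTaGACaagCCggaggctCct
ADAMTS5 probe 1 lies at chr1:8772035-8772094 on the forward strand. ADAMTS5 probe 2 lies at chr1:8748841-8758669, also forward, and since its 60 bases span 9829 bases of genome it crosses at least 1 gap between exons. ADAMTS4 probe 4 lies at chr3:9234008-9234819, forward, and spans 812 bases. Among the 103 pairs of probes of different genes in the set, no pair shared more identical bases than this one, and the longest run shared by any pair was 10 bases. In the RefSeq annotation of assembly ARS-UCD2.0, ADAMTS1 and ADAMTS5 are neighbours on chromosome 1 with 0 protein-coding genes between them.

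ADAMTS5 was the one gene of the 6 with a difference past the threshold. It fell by day 100, with both of its probes lower in all 4 cows than at day 10, 3.61-fold by probe 1 and 5.66-fold by probe 2. ADAMTS4, another aggrecanase, had lower values at day 100 in all 4 cows on its 3 measured probes, without passing. ADAM12 had higher values at day 50 than at day 10 in all 4 cows. ADAMTS9 had higher means at days 30 and 50 than at day 10, and ADAMTS1 had similar means at every time. None of these differences passed.

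Levels are log2 values relative to the percentile 75 of the array. ADAMTS5 probe 1 had levels of 1.60, 0.99, 1.19 and 0.91 in cows 1 to 4 at day 10, 0.22, 0.61, 1.65 and 0.69 at day 30, 0.01, -0.37, 0.14 and -0.45 at day 50, and -2.10, -0.38, 0.03 and -0.27 at day 100. The day 50 and day 100 values lay wholly below those of day 10, whereas those of day 30 overlapped them. ADAMTS5 probe 2 had levels of 0.40, -0.39, 0.23 and -0.92 at day 10, -1.25, -1.29, -0.16 and -2.12 at day 30, -1.55, -2.11, -1.77 and -2.24 at day 50, and -3.76, -2.91, -1.94 and -2.08 at day 100. Its order was the same, with no overlap of day 50 or day 100 with day 10.

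The difference from day 10 was tested with limma, with cow as a term in the model and Benjamini-Hochberg adjustment over all 33174 tested probes. At day 100, ADAMTS5 probe 1 averaged -0.68 ± 0.96 against 1.17 ± 0.31 at day 10 (SD, n = 4 each), a log2 difference of -1.85 with a standard error of 0.39 and a 95% interval of -2.71 to -0.99 (limma adjusted p = 0.0270). Probe 2 averaged -2.67 ± 0.84 at day 100 and -0.17 ± 0.60 at day 10 (SD, n = 4 each), a log2 difference of -2.50 with a standard error of 0.42 and an interval of -3.42 to -1.59 (limma adjusted p = 0.0127). Both falls exceeded the SD of either group, while single cows differed widely, from -3.70 to -1.16 on probe 1 and from -4.16 to -1.15 on probe 2.

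At day 50 the ADAMTS5 differences from day 10 were -1.34 on probe 1 and -1.75 on probe 2, lower in 4 of 4 cows on each, and did not pass (limma adjusted p = 0.104 and 0.0623). At day 30 they were -0.38 and -1.03 (limma adjusted p = 0.686 and 0.303). Means of ADAMTS5 thus ran in the order day 10, day 30, day 50, day 100 on both probes, and no neighbouring pair of times in that order differed past the threshold. ADAMTS5 probe 1 at day 50 lay wholly below day 30, and at day 100 also, and it was the single member probe with no overlap in either comparison. Beside this, 3.49% of all probes lay wholly lower at day 50 than at day 30 and 4.1% wholly higher, and 1.67% wholly lower at day 100 than at day 30 and 1.32% wholly higher. The limma F test over all times did not pass for either probe (adjusted p = 0.0797 and 0.0512). The probes followed each other over the 16 arrays with a Pearson correlation of 0.92, given as a description because the arrays come from 4 animals.

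**Figure D1:**
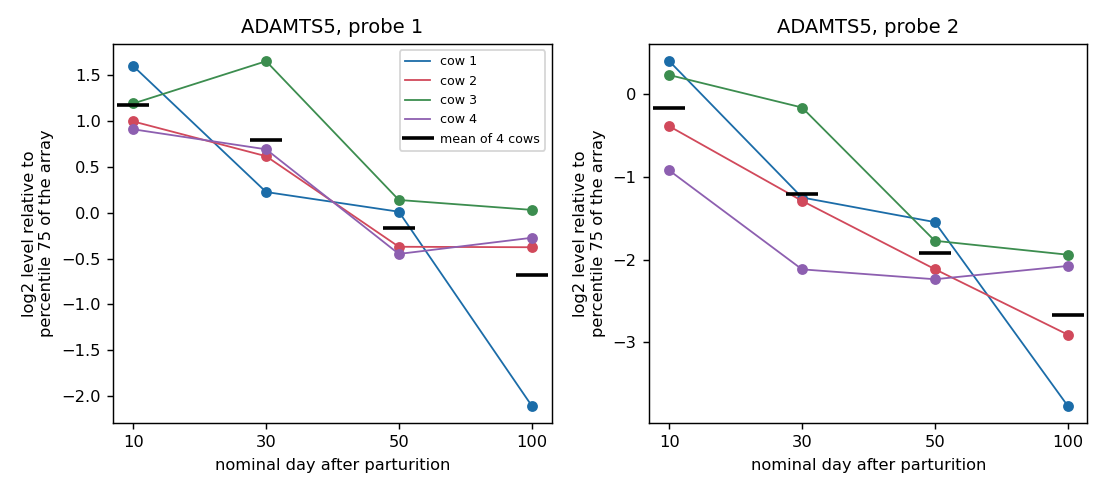
Log2 level of both ADAMTS5 probes relative to the percentile 75 of the array, by nominal day after parturition, with 1 line per cow and black bars for the mean of 4 cows. On both probes all day 50 and day 100 values lie below all day 10 values, and cow 1 at day 100 is the lowest point at -2.10 on probe 1 and -3.76 on probe 2.

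The day 100 array of cow 1 was extreme in several marker lists, and the ADAMTS5 result was recomputed without it. Its mean levels of marker genes, relative to all arrays, were -1.52 for stromal fibroblasts, -3.96 for smooth muscle and 2.57 for epithelium. It was not alone in this, since the day 100 array of cow 2 lay on the other side, at 2.36 for smooth muscle and -2.85 for epithelium. Leaving out the day 100 array of cow 1 gave ADAMTS5 differences of -1.38 on probe 1 and -2.04 on probe 2 at day 100, and both still passed (limma adjusted p = 0.0321 and 0.0189). Leaving out cow 1 altogether gave -1.24 and -1.95, and neither passed (limma adjusted p = 0.0720 and 0.0721), with 3 cows remaining. Leaving out cow 2 or cow 4 ended the call of probe 1 (limma adjusted p = 0.0597 and 0.0923) and not that of probe 2, and scaling to the array median ended that of probe 1 (limma adjusted p = 0.0545). Leaving out cow 3 ended both calls (limma adjusted p = 0.128 and 0.0924), as did leaving out the day 10 array of cow 1, which gave -1.51 and -2.23 (limma adjusted p = 0.0861 and 0.0515). The fit on the 8 arrays of these 2 times alone ended both as well, at limma adjusted p = 0.186 and 0.148.

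**Figure D2:**
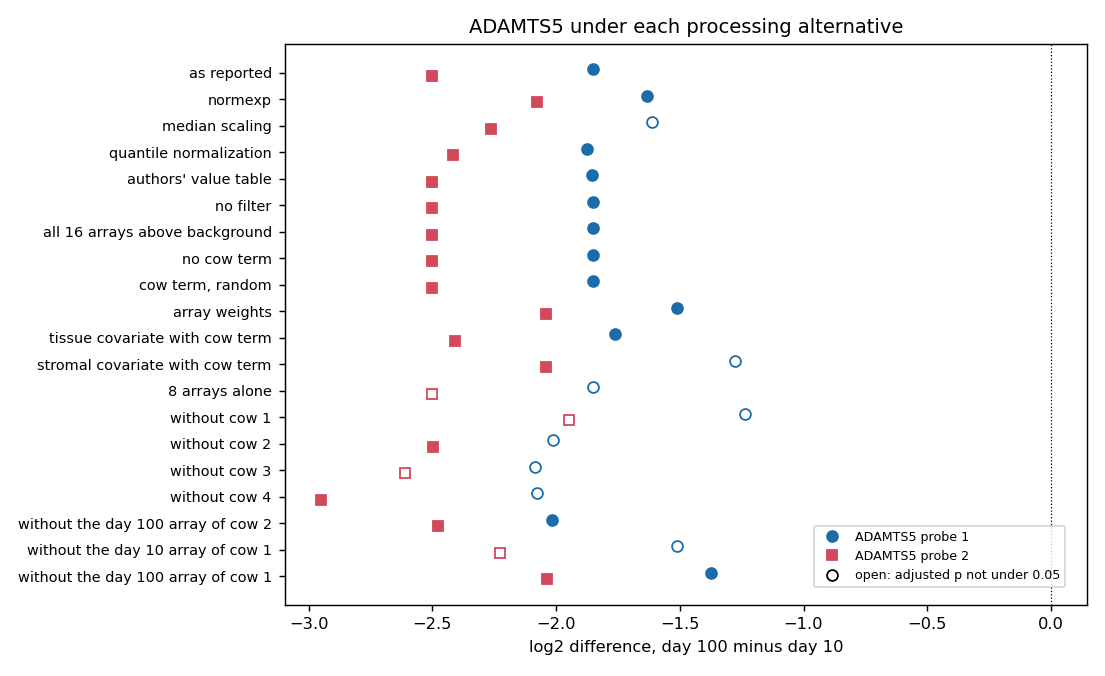
Log2 difference of both ADAMTS5 probes, day 100 minus day 10, as reported and under each of 19 processing alternatives, with open symbols where the limma adjusted p was not under 0.05. Every value is below 0, from -2.08 to -1.24 on probe 1 and from -2.95 to -1.95 on probe 2, and 11 alternatives for probe 1 and 15 for probe 2 passed.

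Markers of other cell types moved over the same comparison. The macrophage list, with 5 of its 7 genes measured, had a mean level relative to all arrays of -1.60 to 0.11 at day 100 and 1.25 to 2.97 at day 10, and 5 of 5 fell. Its range was -1.72 to 0.30 at day 30, with 3 of 5 fallen, and -1.90 to 1.25 at day 50, with 2 of 5 fallen. The stromal fibroblast list, measured for 8 of 8 genes, ran from -1.52 to 0.37 at day 100 and from 0.01 to 0.61 at day 10, and 0 of 8 passed. The neutrophil list, with 3 of 6 genes measured, ran from -3.05 to 2.30 at day 100 and from 0.12 to 6.29 at day 10, and 0 of 3 passed. The erythroid list, with 3 of 4 measured and none above background on all arrays, ran from 0.10 to 3.91 at day 100 and from -0.72 to -0.01 at day 10, with 1 gene risen and 1 fallen. The pericyte list, with 3 of 5 measured, ran from -1.83 to 0.25 at day 100 and from 0.12 to 0.97 at day 10, and 1 of 3 fell. None of the smooth muscle, epithelium and endothelial cell markers passed. With the stromal mean as a covariate, an alternative chosen after the data were seen, the ADAMTS5 differences were -1.28 and -2.04 (limma adjusted p = 0.0552 and 0.0416). The part of the macrophage, neutrophil, erythroid and pericyte differences in the ADAMTS5 result was not tested, and in bulk tissue fewer cells of a type and less RNA per cell cannot be told apart. Each cow had its own slide and the 4 times had the same order of positions on every slide, so cow and slide, and time and slide position, cannot be told apart.

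**Figure D3:**
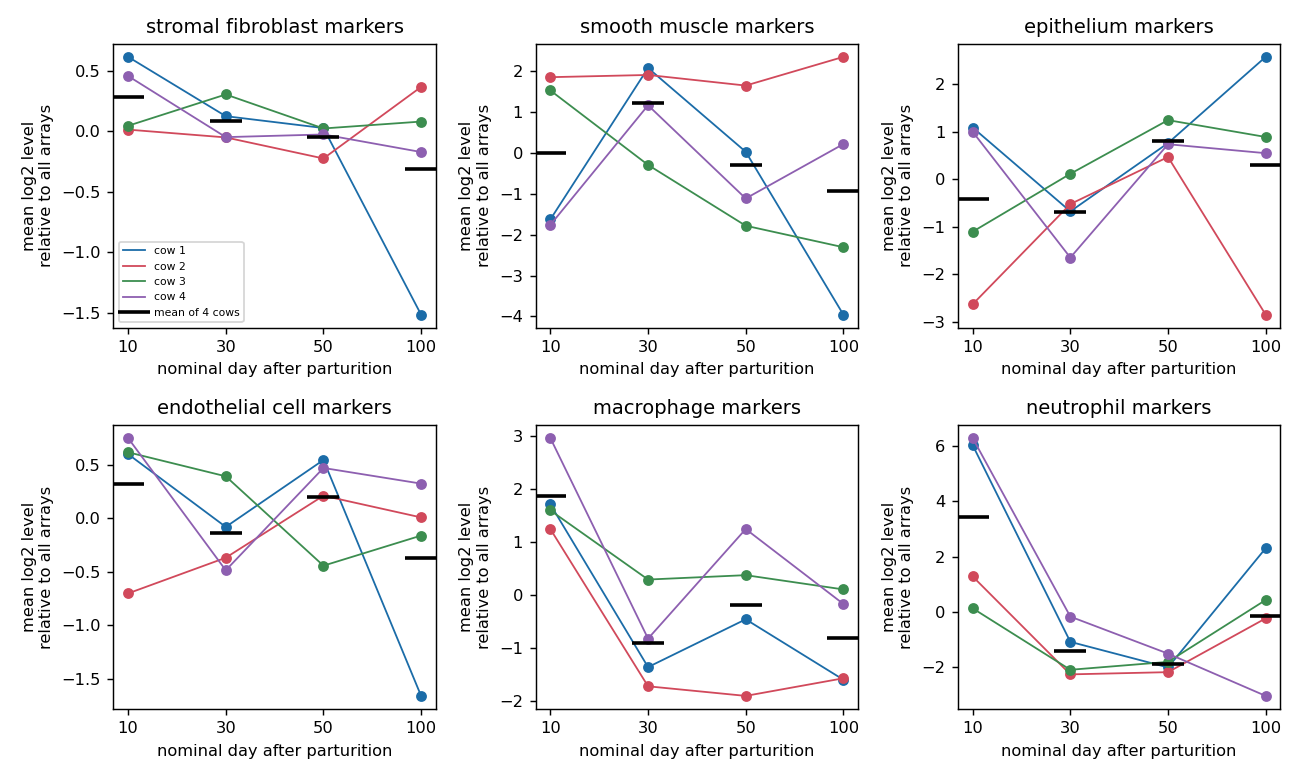
Mean log2 level of 6 marker lists relative to their mean over all arrays, by nominal day, with 1 line per cow and black bars for the mean of 4 cows. Macrophage markers are high at day 10 in all 4 cows, and cow 1 at day 100 is lowest for stromal fibroblast, smooth muscle and endothelial cell markers.

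Of the 15 member probes tested at day 100 against day 10, 2 were called lower and 0 higher, where 4.6% of all tested probes were called in either direction (1.47% higher and 3.14% lower). At day 50 against day 10, 0 of 15 were called, beside 1.65% of all probes (0.597% higher and 1.06% lower), and at day 30 against day 10, 0 of 15 beside 0.419% (0.0121% higher and 0.407% lower). At an unadjusted p under 0.05 limma counted 7, 4 and 1 of the 15 member probes at days 100, 50 and 30 (46.7%, 26.7% and 6.67%), beside 25.7%, 18.6% and 14% of all tested probes. The day 30 share was thus under that of all probes. Of the 7 at day 100, ADAMTS9 probe 3 was higher, and the others, of ADAMTS2, ADAMTS4 and ADAMTS5, were lower. Probes of the same gene are not independent of each other. By the brightest probe of each gene the counts were 3, 2 and 0 of 6 at days 100, 50 and 30. The F test over all times called 0 of 15, beside 1.03% of all probes. Between later days, 0 of 15 member probes passed and 0 of all 33174 probes did. At an unadjusted p under 0.05 limma counted 2 of 15 member probes for day 50 against day 30, 3 for day 100 against day 30 and 0 for day 100 against day 50, beside 9.33%, 12.8% and 3.14% of all probes. The median log2 difference over member probes was -0.52 at day 100, 0.14 at day 50 and 0.01 at day 30, against -0.07, -0.03 and -0.01 over all tested probes. The member probes were noisier than most, with a median standard error of 0.70 against 0.36 over all probes at day 100.

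**Figure D4:**
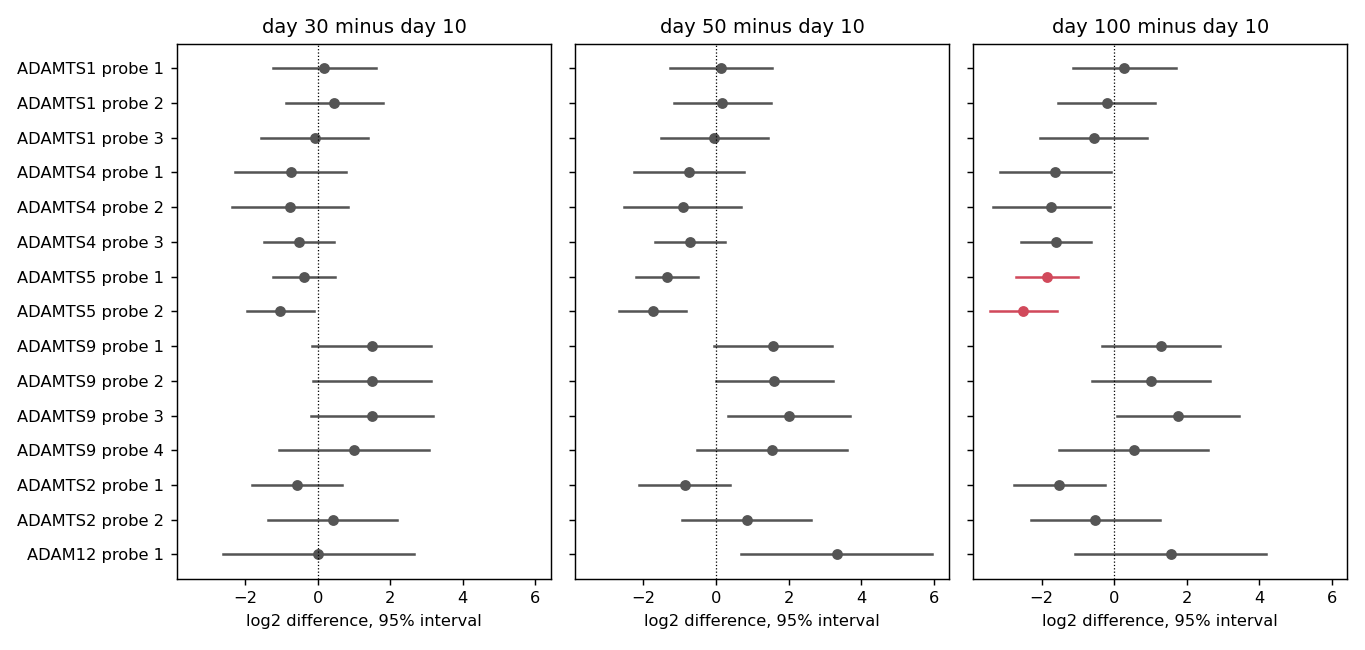
Log2 differences of the 15 tested probes from day 10 at days 30, 50 and 100, with 95% intervals from limma, red where the adjusted p was under 0.05. The 2 ADAMTS5 probes at day 100 are the red ones, and at day 50 the ADAM12 value of 3.33 is the farthest from 0.

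ADAMTS4, an aggrecanase like ADAMTS5, was measured by 3 probes, while probe 4 had only background signal and gives no difference. Its probe 1 (chr3:9238241-9238300) had levels of 1.44, 1.64, 1.45 and 1.85 at day 10, 0.12, 2.25, 1.13 and -0.12 at day 30, 0.86, -0.44, 1.29 and 1.70 at day 50, and -2.46, 0.96, 0.72 and 0.68 at day 100. The day 100 values all lay below day 10, and 3 of them lay close together with cow 1 far under them. Probe 1 differed by -1.62 ± 0.70 (SE) at day 100, and probes 2 and 3 by -1.73 ± 0.73 and -1.59 ± 0.44 (limma adjusted p = 0.172, 0.168 and 0.0610). All 3 probes were lower in 4 of 4 cows and did not overlap day 10. With both ADAMTS5 probes, 5 of 15 member probes lay wholly below day 10 at day 100, beside 6.46% of all probes, and 0 lay wholly above it, beside 4.57%. Probes 1 and 2 rested in part on cow 1, and without that cow their differences were -0.86 and -1.02 (limma adjusted p = 0.481 and 0.450). Probe 3 is dim and depended on the background correction: its difference was -0.02 with normexp (limma adjusted p = 0.972), and it passed in 4 of 18 alternatives, among them the fit without the cow term (limma adjusted p = 0.0451).

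At days 30 and 50 the ADAMTS4 differences from day 10 ran from -0.92 to -0.53 over the 3 probes and none passed. Probes 1 and 2 of ADAMTS4 correlated at 0.96 over the 16 arrays, and probe 3 at 0.73 with probe 1 and 0.70 with probe 2.

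ADAMTS9, a widely expressed family member that cleaves versican, had higher means after day 10 on all 4 probes, and no difference passed. Probe 1 (chr22:37743798-37743857) had levels of -0.83, 0.80, 0.48 and -1.39 at day 10, 1.02, 1.57, 2.46 and -0.05 at day 30, 1.18, 0.66, 1.74 and 1.78 at day 50, and -1.79, 2.95, 1.36 and 1.71 at day 100. Every later group overlapped day 10 on this probe, and cow 1 at day 100 was the lowest of the 16. The day 50 differences were 1.57, 1.61, 2.01 and 1.54 on probes 1 to 4, with the lowest limma adjusted p of 0.192 on probe 3. Probes 3 and 4 lay wholly above day 10 at day 50. On probe 4 this was narrow, with a lowest day 50 level of -5.58 and a highest day 10 level of -5.60. The dimmer probes gave a signal above background on 13 arrays (probe 3) and 10 arrays (probe 4). At day 10 each was above background on 2 of 4 arrays. The 4 probes followed each other over the arrays, with correlations of 0.85 to 0.98.

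ADAMTS1, which cleaves versican and is induced by progesterone and luteinizing hormone in the ovary of mice, did not differ past the threshold at any time. Its probe 1 (chr1:8950016-8950075) had levels of 5.70, 3.36, 4.15 and 4.07 at day 10, 4.21, 4.60, 4.41 and 4.77 at day 30, 4.31, 4.03, 4.93 and 4.56 at day 50, and 2.42, 5.17, 5.58 and 5.25 at day 100. The cows did not move alike, since cow 1 had its highest value at day 10 and its lowest at day 100 while the other cows were higher at day 100 than at day 10. The mean difference at day 100 was 0.28 with a 95% interval of -1.13 to 1.70, so a change of over 2-fold in either direction lay within it. Probes 2 and 3 had differences of -0.20 and -0.57 at day 100, and the sign of these differences changed with several alternatives.

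ADAMTS2, the procollagen amino-propeptidase, had differences of opposite sign on its 2 probes at days 30 and 50. Probe 1 (chr7:2127387-2127446) had levels of -0.54, -0.23, 0.30 and -0.05 at day 10, -1.27, -0.50, 0.10 and -1.14 at day 30, -1.14, -1.29, -1.19 and -0.35 at day 50, and -4.16, -0.11, -1.25 and -1.01 at day 100. At day 100 cow 1 was far below the others and cow 2 stayed within the day 10 values. The day 100 difference was -1.51 ± 0.57 (SE), lower in 3 of 4 cows (limma adjusted p = 0.131), and over the fits that each left out 1 cow it ran from -2.05 to -0.80. Probe 2, well above background on 12 of 16 arrays, differed by 0.41 at day 30, 0.85 at day 50 and -0.52 at day 100, beside -0.57, -0.87 and -1.51 on probe 1. The probes correlated at 0.64.

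ADAM12 was measured by 1 probe (chr26:46396180-46396239, reverse strand), well above background on 14 of the 16 arrays. Its levels were -6.36, -4.59, -2.83 and -5.69 at day 10, -2.16, -4.82, -3.56 and -8.89 at day 30, -1.40, -2.56, -0.71 and -1.48 at day 50, and -4.92, -2.92, -3.52 and -1.87 at day 100. All 4 day 50 values lay above all 4 day 10 values, and the groups at days 30 and 100 overlapped day 10. The arrays not above background were cow 1 at day 10 and cow 4 at day 30, so these 2 levels have no firm value. The day 50 difference was 3.33 ± 1.20 (SE), higher in 4 of 4 cows, and did not pass (limma adjusted p = 0.171). It rests in part on the day 10 level of cow 1, and over 18 alternatives it ran from 1.94 to 3.77 and passed in 1. With ADAMTS9 probes 3 and 4, 3 of 15 member probes lay wholly above day 10 at day 50, beside 8.68% of all probes, and the 2 ADAMTS5 probes lay wholly below it, beside 8.18%. At day 30 every member probe overlapped day 10, where 3.63% of all probes lay wholly above it and 4.88% wholly below.

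**Figure D5:**
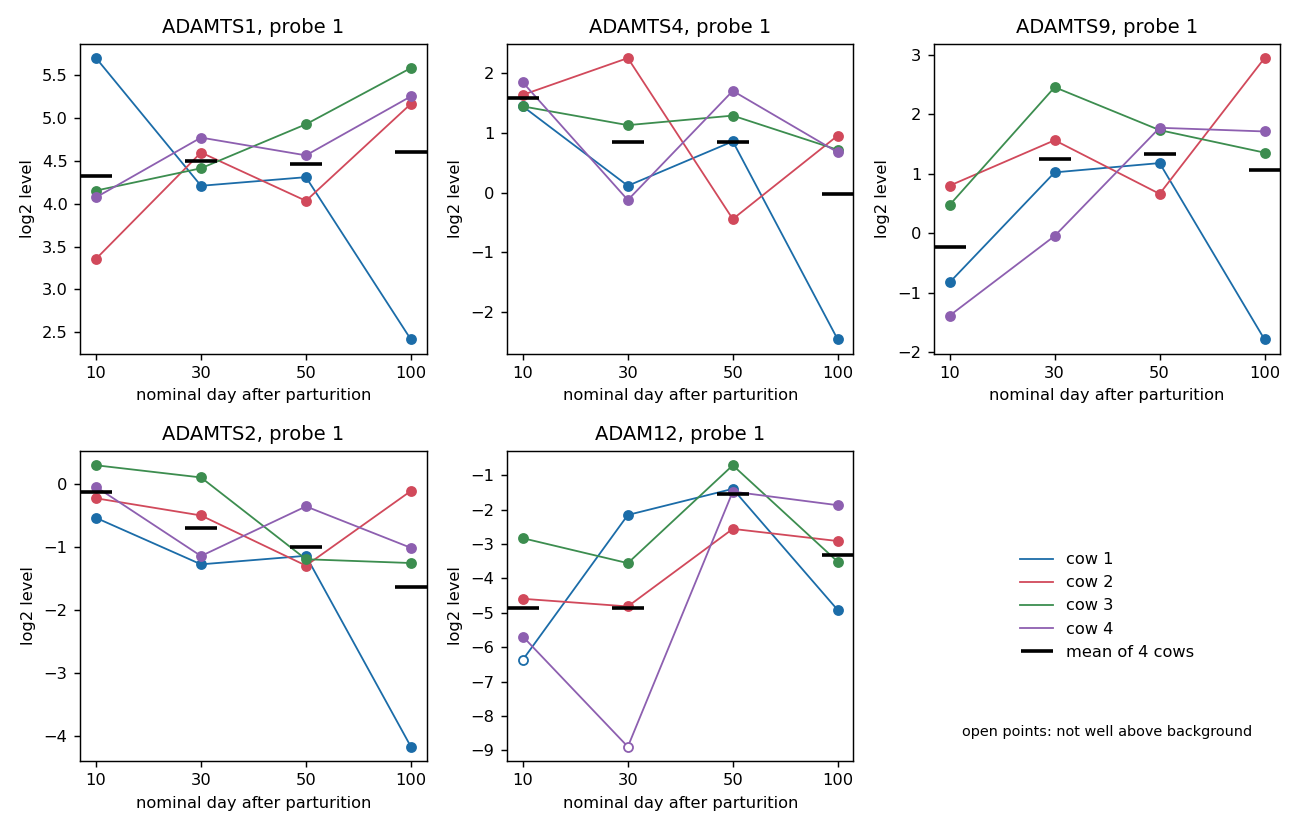
Log2 level of the brightest probe of ADAMTS1, ADAMTS4, ADAMTS9, ADAMTS2 and ADAM12 relative to the percentile 75 of the array, by nominal day, with 1 line per cow, black bars for the mean of 4 cows and open points for values not well above background. ADAM12 is highest at day 50 in cows 1, 2, 3 and 4, and cow 1 at day 100 has the lowest value of ADAMTS1, ADAMTS4, ADAMTS9 and ADAMTS2.

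The brightest probes of ADAMTS2 and ADAMTS4 followed each other most closely among the 6 genes, with a correlation of 0.87 over the 16 arrays, and ADAMTS5 correlated at 0.78 with ADAMTS2 and 0.69 with ADAMTS4. ADAM12 correlated at 0.58 with ADAMTS9 and at -0.30 with ADAMTS5. These values share cow 1 at day 100, the lowest array of several probes, and are descriptions. Among 9879 other genes measured on all 16 arrays, the patterns most like ADAMTS5 probe 1 were DCBLD2 (r = 0.91), PROS1, which encodes the anticoagulant protein S (r = 0.89), and GOLM2 (r = 0.89). For ADAMTS2 they were FN1, which encodes fibronectin (r = 0.94), the type I collagen chain gene COL1A2 (r = 0.94) and the metalloproteinase inhibitor gene TIMP3 (r = 0.93).

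For ADAMTS4 the most alike genes were SLC41A2 (r = 0.92), the prostaglandin E2 receptor gene PTGER4 (r = 0.90) and the basement membrane collagen gene COL4A1 (r = 0.88). Those for ADAMTS9 were PTPRD (r = 0.92), TMEM59L (r = 0.90) and GPM6B (r = 0.89). For ADAM12 they were PIK3R1, a phosphoinositide 3-kinase subunit gene (r = 0.87), GLI4 (r = 0.87) and HSD11B2, whose enzyme inactivates cortisol (r = 0.84). ADAMTS1 was most like NUDT3 (r = 0.88), ATXN7L3B (r = 0.84) and the decorin gene DCN (r = 0.83).

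A list of 58 genes of the same pathway, made of other ADAMTS and ADAM enzymes, ADAMTS-like proteins, inhibitors, activators and substrates, had 51 genes on the array and 45 tested. By its brightest probe, 0 of 45 rose and 2 fell at day 100, 0 rose and 1 fell at day 50, and 0 changed at day 30, where 3.14%, 1.06% and 0.407% of all probes were called lower at days 100, 50 and 30. With 2 and 1 of 45, the list's counts are near those shares. Its median log2 difference was -0.43 at day 100, -0.20 at day 50 and -0.22 at day 30. The genes that fell were ADAM19 and ADAM9, which encode membrane-anchored ADAM proteases. ADAM19 differed by -2.54 ± 0.61 (SE) at day 100 (limma adjusted p = 0.0407), and ADAM9 by -1.69 ± 0.39 at day 100 and -2.18 ± 0.39 at day 50 (limma adjusted p = 0.0359 and 0.0257). Each was lower in 4 of 4 cows. The second tested probe of ADAM19 also passed at day 100, and the second tested probe of ADAM9 passed at neither time.

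The inhibitors, activators and substrates on that list did not pass at day 100 by their brightest probe, while 1 other probe each of A2M, FBLN1, NCAN and IGFBP3 passed. By its brightest probe NCAN was higher, by 1.56 ± 0.64 (SE, limma adjusted p = 0.154), whereas A2M, FBLN1 and IGFBP3 were lower. TIMP3, a metalloproteinase inhibitor gene, differed by -0.94 ± 0.46 (SE, limma adjusted p = 0.223). VCAN encodes versican, a substrate of ADAMTS1, ADAMTS4, ADAMTS5 and ADAMTS9, and differed by -0.01 ± 0.63 (limma adjusted p = 0.993). It was read from 1 probe. FURIN, whose product processes proenzymes of the ADAMTS kind, differed by -0.35 ± 0.31 (limma adjusted p = 0.502). FN1 by its brightest probe differed by -1.40 ± 0.49 (limma adjusted p = 0.108), while 6 of its other 12 probes passed. PCOLCE, which encodes an enhancer of procollagen processing, differed by -2.22 ± 0.65 and was lower in 4 of 4 cows (limma adjusted p = 0.0703). It does not stand for its class. The 5 tested genes of that class, procollagens and other genes of procollagen processing, had a median log2 difference of -0.56 at day 100, and 0 passed. For the ADAM12 substrates, IGFBP3 differed by -2.16 ± 0.72 and HBEGF by -1.04 ± 0.42 (limma adjusted p = 0.0965 and 0.151).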

How the data were processed

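Total RNA of 16 endometrial biopsies from 4 cows at 4 times was labelled with Cy3, per the labels' protocols. The deposited scanner files hold intensity values of 45220 spots per array, 1417 of them controls, and per the file headers Agilent Feature Extraction 11.5.1.1 made the background-subtracted processed intensity. The submitters' processing notes name version 10.5.1.1. The authors also deposited a log2 value table, which matched the scanner values scaled to percentile 75 and centred per probe (correlations of 0.999847 to 0.999968, column medians of -0.155 to 0.217) and served as an alternative.

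From these, log2 processed signal minus the array's percentile 75 was computed, with nonuniform and control spots left out and spots of a probe averaged. Probes well above background on at least 4 arrays were tested, 33174 of 43653. The share of probes well above background was 61.2% to 77.0% per array, and there are 4 arrays per time, which limits the precision. The lowest share was that of cow 1 at day 10. Median processed signal was lowest on the day 100 arrays of cows 3 and 2, at 51.1 and 54.8. On the other arrays it ran from 79.2 to 154. No member spot was saturated or nonuniform, and 14 member spots held surrogate values. limma 3.58.1 in R 4.3.3 fitted time with cow as a term, since the same animals were sampled at each time, with a two-sided threshold of 0.05 on adjusted p. Same-cow arrays deviated together slightly (median correlation 0.125 over 24 pairs, -0.04 over 72 pairs of different cows). The fit was tested on simulated data, with shifts larger than the ADAMTS5 differences. That test does not show how well differences of the ADAMTS5 size are recovered. All member probes are named. Pathway genes are named if they passed or are direct partners, and PCOLCE is named besides. Alike genes are the 3 with the highest Pearson correlation. The members and lists were chosen with earlier results of these data known. Alternatives covered background correction, scaling, filter, cow term, weights, covariates and arrays left out.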

Additional observations from a re-analysis of the deposited data

Results flagged for a closer look

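In 5 of the 64 sets of 4 cows that share a probe and a day, 1 cow lay far from the other 3, where chance marks about 1 in 20 sets. The value in brackets is the gap to the nearest cow as a share of the whole range, and each exceeds Dixon's 95% critical value for 4 samples. At day 100, cow 1 was far below the others on ADAMTS1 probe 1 (0.8681), ADAMTS4 probe 1 (0.9179) and ADAMTS4 probe 2 (0.8653), and these share 1 array. At day 50, cow 4 was high on ADAMTS2 probe 1 (0.8342) and cow 3 was high on ADAMTS9 probe 3 (0.8293).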

How the results depend on the processing

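Of the 45 differences of single member probes from day 10, 32 kept their direction under every alternative run, the 4 ADAMTS5 values at days 50 and 100 among them, and 13 turned sign in at least 1, 44 times in all. None of these 13 had an unadjusted p under 0.05 as reported, and the cause was not tested. The turned log2 differences outside the fits that leave out a cow were as follows. For ADAMTS1 probe 3 they were 0.0075 with normexp, 0.022 with median scaling, 0.15 with array weights, 0.23 with the stromal covariate and 0.59 without the day 10 array of cow 1 at day 30. At day 50 they were 0.075 with array weights, 0.066 with the tissue covariate, 0.49 with the stromal covariate and 0.63 without the day 10 array of cow 1, and at day 100 0.065 with normexp, 0.038 with array weights, 0.39 with the stromal covariate, 0.12 without the day 10 array of cow 1 and 0.20 without the day 100 array of cow 1. For ADAMTS1 probe 2 at day 100 they were 0.035 with median scaling, 0.46 with array weights, 0.60 with the stromal covariate, and 0.38 and 0.54 without the day 10 and the day 100 array of cow 1. ADAMTS1 probe 1 at day 100 was -0.047 without the day 100 array of cow 2. ADAMTS2 probe 2 at day 100 was 0.46 with normexp, 0.36 with the stromal covariate and 0.045 without the day 100 array of cow 1. ADAM12 at day 30 was -0.41 with the tissue covariate and -0.62 without the day 10 array of cow 1, and ADAMTS9 probe 4 at day 100 was -0.15 without the day 100 array of cow 2.

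Leaving out each cow in turn, ADAMTS1 ran from -0.18 to 0.73, -0.085 to 0.85 and -0.70 to 0.35 on probes 1 to 3 at day 30, from -0.075 to 0.65, -0.073 to 0.53 and -0.27 to 0.46 at day 50, and from -0.23 to 1.47, -0.69 to 0.79 and -1.25 to 0.52 at day 100. ADAMTS2 probe 2 ran from -0.16 to 1.01 at day 30 and from -1.17 to 0.17 at day 100, ADAM12 from -1.38 to 1.09 at day 30, and ADAMTS9 probe 4 from -0.47 to 1.41 at day 100.

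The count of called member probes at day 100 against day 10, 2 as reported, was 1 with median scaling, 4 with array weights, 1 with the stromal covariate, 0 with the 8 arrays alone, 0 without the day 10 array of cow 1 and 0 to 2 leaving out each cow. It was 3 without the cow block (no replicate block), with cow as a random block, with the tissue covariate and without the day 100 array of cow 2. At day 50 against day 10, 0 as reported, it was 1 with normexp, 6 with array weights, 1 with the tissue covariate, 2 with the 8 arrays alone and 2 without the day 100 array of cow 1. For the F test over all times, 0 as reported, it was 1 with normexp, 1 with the filter on all 16 arrays, 1 with cow as a random block, 2 with array weights and 1 without the day 100 array of cow 1.

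Over all probes the called count at day 100 against day 10, 1527 as reported, ran from 44 (8 arrays alone) to 3102 (without the day 100 array of cow 2) over the alternatives, that at day 50, 548 as reported, from 21 to 4905, that at day 30, 139 as reported, from 4 to 759, and that of the F test, 342 as reported, from 17 to 2635. Between later days, 0 as reported, the highest counts were 383 for day 50 against day 30 and 112 for day 100 against day 30. The day 100 split of 486 higher and 1041 lower probes became 1509 and 602 with normexp, where the median of all probes was 0.23 in place of -0.07, and 781 and 684 with median scaling, where it was 0.17. It was 643 and 826 with quantile normalization. Signals near background limit ADAM12, ADAMTS4 probe 3, ADAMTS2 probe 2 and ADAMTS9 probes 3 and 4.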
